A study of Mus musculus with 20 samples.

Results

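The genes described here encode 8 chains of the receptors for interleukins of the IL-12 and IL-6 families and for interferon-γ: Il12rb1, Il12rb2, Il23r, Il27ra, Il6ra, Il6st, Ifngr1 and Ifngr2. They were taken by symbol from a table of counts per protein-coding gene, and the 8 genes are all that carry these symbols among its 22048 rows. All 8 had enough counts to be among the 13072 genes tested. Il12rb1 encodes the chain that the receptors for IL-12 and IL-23 share. It pairs with the product of Il12rb2 to bind IL-12 and with that of Il23r to bind IL-23. Il6st encodes gp130, the signalling chain that joins the product of Il6ra to receive IL-6 and that of Il27ra to receive IL-27. Ifngr1 encodes the chain that binds IFN-γ, and Ifngr2 the partner without which the bound receptor does not signal. All these receptors act through JAK kinases and STAT transcription factors. In textbook accounts naive CD4+ T cells carry little of the IL-12 receptor, gain it on activation and keep its signalling chain under Th1 conditions, while IL-6 receptor chains decline after activation and Th1 cells lose the partner chain of the IFN-γ receptor.

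CD4+ T cells came from spleen and peripheral lymph nodes of mice that carried either CD4Cre alone (WT) or CD4Cre with a floxed DOT1L gene (DOT1L FL/FL, KO). DOT1L is a histone methyltransferase, and this Cre transgene acts in the T cell lineage from the thymus onward, so the KO cells had developed with the deletion and the controls carried the Cre transgene as well. The series holds 20 RNA libraries in 10 groups of 2. Isolated cells that had not been cultured, called naive here after the title of the series, came from WT and KO mice. Cells of both genotypes were also stimulated for 4 days with antibodies to CD3 and CD28, each coated on the plate at 1 µg/ml, and viable CD4+ cells were then sorted. Th1 cultures held IL-2 and IL-12 (10 ng/ml each) with anti-IL-4 (10 µg/ml), and Th2 cultures held IL-2 and IL-4 (10 ng/ml each) with anti-IFN-γ (10 µg/ml). WT cultures of both kinds were also run with 1 µM SGC0946, an inhibitor of the DOT1L enzyme, or with 1 µM SGC0649, the compound used as its inactive control. The age of the mice is not given in the sources used here. Nothing states that the 2 libraries of a group are from separate cultures other than the animal numbers in their titles, so the tests measure the spread between these libraries.

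Libraries held 9704500 to 13025588 protein-coding counts. Levels are given as CPM, the count scaled to the library size after correction by the trimmed mean of M values (TMM), and a pair of CPM values stands for replicates 1 and 2 in that order. Dot1l itself, counted over the whole gene, stood at 146 and 166 CPM in KO naive against 163 and 171 in WT naive libraries, at 131 and 146 against 176 and 186 in Th1, and at 113 and 92.5 against 148 and 164 in Th2. It was lower in KO Th1 (log2 -0.39, adjusted p = 0.00841) and KO Th2 (log2 -0.60, adjusted p = 0.000269), and its naive libraries overlapped (log2 -0.10, adjusted p = 0.544). The deleted exons are not given in the sources used here, so the whole-gene count checks the deletion only in part. T cell markers were present throughout, with the sum of 8 markers between 3264 and 5933 CPM in naive, Th1 and Th2 libraries without a compound. Other markers moved with genotype: 10 mast cell and basophil genes summed to between 1006 and 2306 CPM in the KO Th1 libraries against 150.4 to 198 in WT Th1, Cd8a and Cd8b1 to 129.6 to 267 CPM in KO Th2 against 13.05 to 16.2, and 11 myeloid and dendritic cell genes to 543 to 1071 CPM in KO naive against 333.03 to 429.7. In these bulk samples fewer cells of a type and less RNA per cell cannot be told apart.

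In the GRCm38 annotation Il12rb1 lies at chr8:70808449-70821424 on the plus strand and Il27ra at chr8:84030287-84042575 on the minus strand. Il6ra lies at chr3:89864059-89913196 (minus), Il6st at chr13:112464070-112510086 (plus), Ifngr1 at chr10:19591949-19610229 (plus) and Ifngr2 at chr16:91547072-91565169 (plus). Il12rb2 (chr6:67291318-67376188) and Il23r (chr6:67422932-67491855) are neighbours in the same orientation on the minus strand, with 46.7 kb between them. RefSeq promoter sequences (GRCm38.p6) were matched for 6 of the 8 genes, all but Il12rb1 and Il27ra. Those of 4 genes are shown because their RNA levels separated the groups most: Il12rb2, which split Th1 from naive cells, its neighbour Il23r, and Il6ra and Ifngr2, which were lower in KO cells in all 3 settings. Each run is the 250 bases before the start of the RefSeq transcript, on the strand of the gene, at chr6:67376189-67376438 (minus), chr6:67491856-67492105 (minus), chr3:89913197-89913446 (minus) and chr16:91546809-91547058 (plus) in that order. Capitals mark TTCNNNGAA, the core of STAT binding elements, and AGGTGTG, the core bound by T-box factors, both searched on either strand.
Il12rb2: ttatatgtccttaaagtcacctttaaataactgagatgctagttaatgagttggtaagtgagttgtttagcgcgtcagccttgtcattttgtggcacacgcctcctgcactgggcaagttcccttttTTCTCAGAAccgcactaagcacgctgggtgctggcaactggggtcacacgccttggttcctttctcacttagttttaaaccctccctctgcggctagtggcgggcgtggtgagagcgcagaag
Il23r: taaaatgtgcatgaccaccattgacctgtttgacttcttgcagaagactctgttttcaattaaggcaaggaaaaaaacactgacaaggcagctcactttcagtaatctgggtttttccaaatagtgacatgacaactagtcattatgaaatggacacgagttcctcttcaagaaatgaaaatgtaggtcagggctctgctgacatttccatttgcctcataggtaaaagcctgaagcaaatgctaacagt
Il6ra: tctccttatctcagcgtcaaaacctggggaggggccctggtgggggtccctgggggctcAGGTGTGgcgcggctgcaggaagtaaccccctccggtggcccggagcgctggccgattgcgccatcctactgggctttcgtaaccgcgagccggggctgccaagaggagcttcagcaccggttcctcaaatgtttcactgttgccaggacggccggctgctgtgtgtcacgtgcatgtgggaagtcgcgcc
Ifngr2: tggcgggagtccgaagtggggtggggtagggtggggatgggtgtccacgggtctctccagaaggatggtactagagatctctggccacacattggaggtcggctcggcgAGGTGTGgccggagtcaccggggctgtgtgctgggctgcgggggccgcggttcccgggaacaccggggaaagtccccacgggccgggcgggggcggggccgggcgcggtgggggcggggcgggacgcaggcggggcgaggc

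Of the 6 promoters, TTCNNNGAA was found in that of Il12rb2, where it spans bases 123 to 115 before the start, and in none of the other 5. It was present in 7.02% of the 32851 RefSeq promoter windows of this length. AGGTGTG was found in the windows of Il6ra (bases 191 to 185) and Ifngr2 (bases 141 to 135) and in 5.1% of all windows. The 2 motifs cannot overlap in these windows, and a match of letters is not a measured binding site. CpG dinucleotides numbered 18 for Il6ra, 25 for Ifngr2, 26 for Il6st, 11 for Ifngr1 and 10 for Il12rb2, against a median of 6 over all windows. Il23r, whose window has 39.6% G and C, held 1 CpG.

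In WT cells the direction of change from naive cells to cultures differed between the chains. The IL-12 and IL-23 receptor chains rose in Th1 and in Th2, the IL-6 receptor chains, Il27ra and Ifngr2 fell in both, and Ifngr1 rose in Th1 and fell in Th2. All 8 genes passed the test in both comparisons (edgeR quasi-likelihood test, adjusted p under 0.05), where 67.3% of all tested genes passed between Th1 and naive cells (34.3% higher, 33% lower) and 71.9% between Th2 and naive cells (36.9% higher, 35% lower). Of the 8, 4 were higher in Th1 and 3 in Th2. The plot of CPM by library shows every value.

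**Figure D1:**
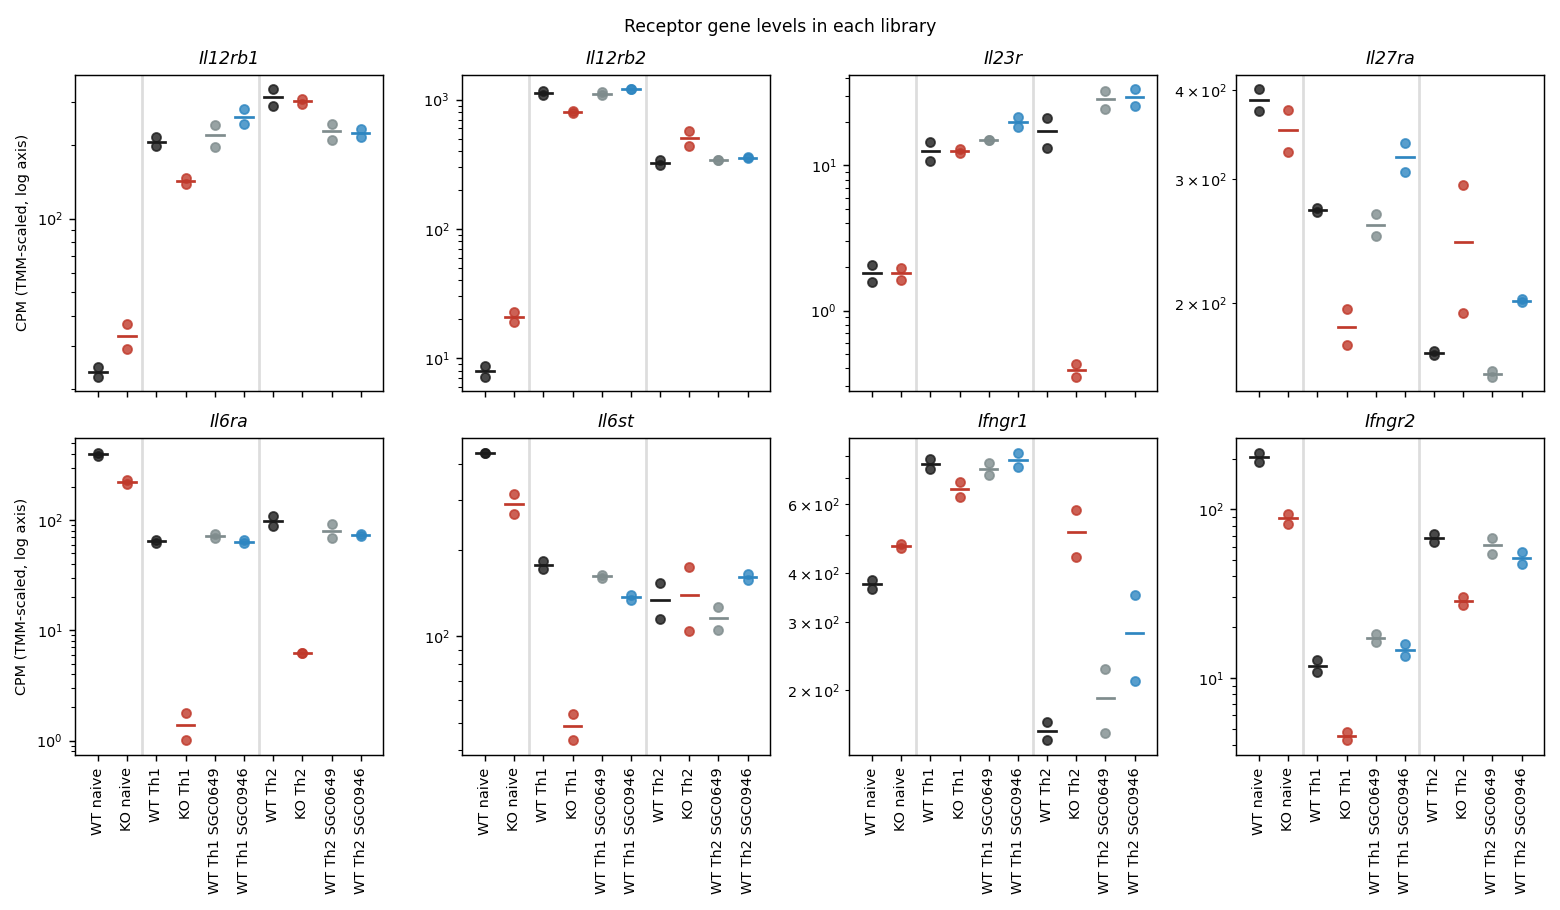
CPM of each receptor gene (log axis, TMM-scaled) in each of the 20 libraries, grouped on the x axis by genotype, culture and compound (black WT, red KO, grey SGC0649, blue SGC0946). Points are libraries and bars are means of 2. Il12rb2 runs from 7.19 CPM in a WT naive library to 1211 in a Th1 library with SGC0946, and Il6ra in KO cultures and Il23r in KO Th2 lie below all other groups.

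Il12rb2 was at 8.64 and 7.19 CPM in WT naive libraries, 1162 and 1088 in WT Th1, and 310.2 and 340.3 in WT Th2. No library of a culture came near a naive one, and Th1 lay above Th2. The rise over naive cells was 142-fold in Th1 (log2 7.15, SE 0.15, adjusted p = 1.8e-15) and 41.2-fold in Th2 (log2 5.36, SE 0.15, adjusted p = 1.13e-14). Il12rb1 was at 24.7 and 22.5 CPM in naive, 215 and 198 in Th1 and 339.7 and 289.7 in Th2 libraries. Here Th2 was the higher culture: the rise was 8.74-fold in Th1 and 13.3-fold in Th2. Il23r was low in naive cells, with 16 and 23 counts, and rose 6.85-fold in Th1 and 9.30-fold in Th2, to 17.2 ± 5.69 CPM (SD, n = 2). Its Th1 libraries (14.4 and 10.8 CPM) and Th2 libraries (13.1 and 21.2 CPM) overlapped.

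Il27ra was at 374 and 402 CPM in WT naive, 269 and 273 in Th1 and 169 and 172 in Th2 libraries. The 3 settings were fully ordered, from naive through Th1 to Th2, with log2 changes from naive of -0.52 (SE 0.13, adjusted p = 0.00267) and -1.19 (SE 0.14, adjusted p = 7.02e-07). Il6ra was at 385 and 412 CPM in naive, 66.4 and 62.3 in Th1 and 109 and 89.0 in Th2 libraries. It was thus 6.19-fold lower in Th1 and 4.03-fold lower in Th2. Il6st, at 439 and 438 CPM in naive libraries, was 2.47-fold lower in Th1 (183 and 173 CPM) and 3.26-fold lower in Th2 (154 and 115 CPM).

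The IFN-γ receptor chains split between the cultures. Ifngr1 was at 383 and 364 CPM in naive, 782 and 740.4 in Th1 and 149 and 166 in Th2 libraries, so that Th1 lay above naive cells and Th2 below. Its log2 change from naive was 1.03 (SE 0.20, adjusted p = 0.000373) in Th1 and -1.25 (SE 0.20, adjusted p = 6.8e-05) in Th2. Ifngr2 took the other order: 191 and 218 CPM in naive, 12.7 and 10.8 in Th1 and 71.0 and 63.7 in Th2 libraries. It was 17.3-fold lower in Th1 than in naive cells and 3.03-fold lower in Th2.

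Between WT Th1 and WT Th2 cultures 6 of the 8 genes passed, against 53.3% of all tested genes (26% higher in Th1, 27.3% lower). Il12rb2 (log2 1.79), Il27ra (0.67) and Ifngr1 (2.27) were higher in Th1, and Il12rb1 (-0.61), Il6ra (-0.62) and Ifngr2 (-2.51) were higher in Th2, with adjusted p from 4.3e-10 to 0.000538. Il23r (log2 -0.44, adjusted p = 0.0964) and Il6st (0.40, adjusted p = 0.0847) missed the threshold, and both passed it without WT Th2 replicate 1 (adjusted p = 0.0131 and 0.0367).

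Compared per kilobase of exon, the most abundant of the 8 transcripts differed by setting. In WT naive cells it was Il27ra at 146 ± 7.35 CPM per kb (SD, n = 2), followed by Ifngr1 at 131 ± 4.69. In WT Th1 it was Il12rb2 at 297 ± 13.9, followed by Ifngr1 at 267 ± 10.3, and in WT Th2 Il12rb1 at 109.5 ± 12.3, followed by Il12rb2 at 85.7 ± 5.60. The scarcest was Il23r in WT naive (0.731 CPM per kb), WT Th2 (6.90) and KO Th2 (0.157), Ifngr2 in WT Th1 (3.56) and Il6ra in KO Th1 (0.161).

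Loss of DOT1L was compared with WT cells of the same setting. Il6ra and Ifngr2 were lower in KO cells in naive, Th1 and Th2 libraries alike, and Il6ra fell furthest, by 46.2-fold in Th1. Il23r was 43.0-fold lower in KO Th2 cells and did not pass the test in naive or Th1 cells. Ifngr1 was 3.23-fold higher in KO Th2 cells, and Il12rb2 was higher in KO naive and Th2 cells and lower in KO Th1 cells. Of the 8 genes, 5 passed in naive cells (2 higher, 3 lower), 6 in Th1 (all lower) and 6 in Th2 (3 higher, 3 lower). Over all tested genes 28.4% passed in naive cells, 50.6% in Th1 and 53.4% in Th2. By direction, 16% of all genes were higher in KO naive cells and 12.4% lower, 24.8% were higher and 25.8% lower in Th1, and 26.5% were higher and 26.9% lower in Th2. The median log2 change of the 8 genes was -0.08 in naive cells, -0.54 in Th1 and 0.00 in Th2, beside 0.01, 0.01 and -0.01 over all genes.

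**Figure D2:**
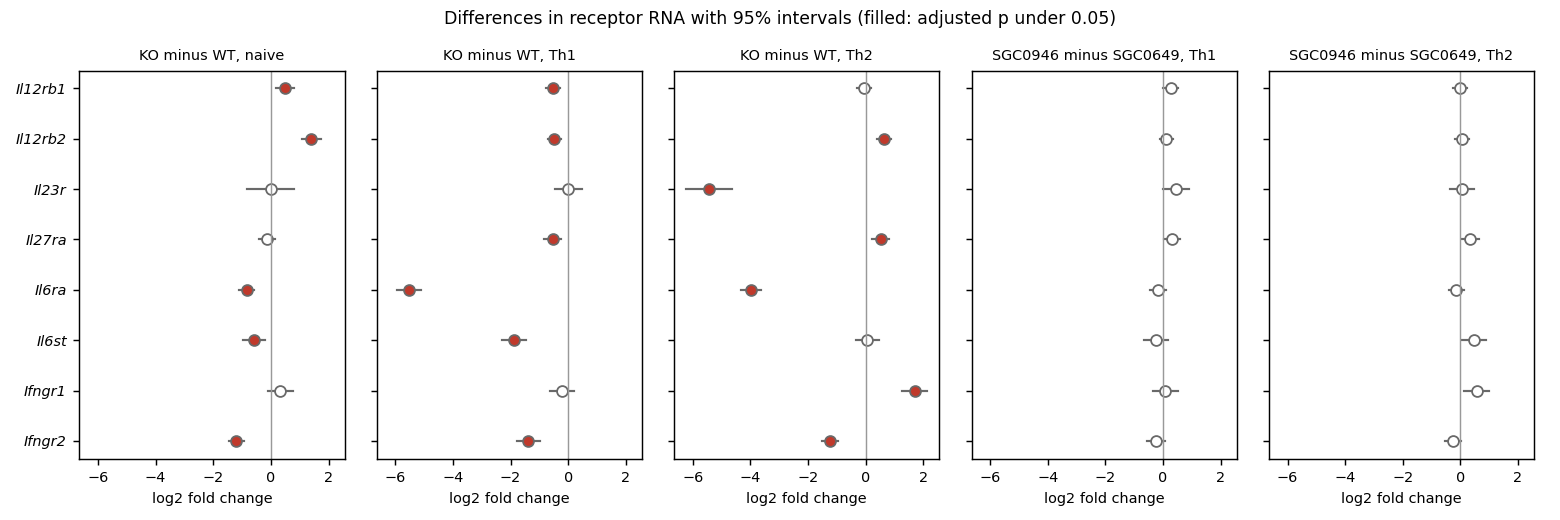
Log2 fold change of each receptor gene (rows) for KO against WT in naive, Th1 and Th2 cells and for SGC0946 against SGC0649 in Th1 and Th2 cultures, with 95% intervals as bars; filled points passed at an adjusted p under 0.05. Il6ra lies at -5.53 and -3.99 in the KO cultures and Il23r at -5.42 in KO Th2, while no point is filled for the compounds.

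The chains of the IL-12 receptor changed direction between settings. Il12rb2 was at 22.7 and 18.9 CPM in KO naive libraries, above both WT naive libraries (log2 1.40, SE 0.15, adjusted p = 9.15e-06, 2.63-fold). In Th1 the KO libraries, at 821 and 789.6 CPM, lay below both WT libraries (log2 -0.48, SE 0.11, adjusted p = 0.00147). In Th2 they lay above, at 572 and 438 CPM (log2 0.63, SE 0.11, adjusted p = 0.000115). These 3 differences stayed past the threshold in every alternative computed for them, the removal of each single library included. The KO naive level of Il12rb2 was still far under that of any culture.

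Il12rb1 was at 29.3 and 37.0 CPM in KO naive, 146 and 139 in KO Th1, and 310.1 and 295 in KO Th2 libraries. The KO Th1 libraries were below both WT Th1 libraries (log2 -0.53, SE 0.12, adjusted p = 0.0018). In Th2 the KO values lay within the WT range (log2 -0.06, 95% interval -0.31 to 0.20). The naive difference, log2 0.49 (SE 0.14, adjusted p = 0.0187), missed the threshold when WT replicate 1, WT replicate 2 or KO replicate 2 of the naive cells was left out (adjusted p = 0.0514, 0.136 and 0.181).

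Il23r separated the KO cultures more than any other gene of the set. KO Th2 libraries held 4 and 4 counts of it, 0.350 and 0.431 CPM, against 144 and 205 counts in WT Th2. Both lay below every other library of the series, naive cells included (1.57 to 2.07 CPM). The difference from WT was log2 -5.42 (SE 0.38, adjusted p = 4.79e-09), and the 8 counts over the group have an exact Poisson 95% interval of 3.45 to 15.8 counts, which covers counting error only. KO Th1 libraries, at 12.9 and 12.2 CPM, lay inside the WT Th1 range (log2 change 0.00, 95% interval -0.46 to 0.46). KO naive libraries, at 1.98 and 1.64 CPM, overlapped with WT naive ones as well (95% interval -0.83 to 0.80). Il12rb2, its neighbour on chromosome 6, was higher in the same KO Th2 libraries.

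Il27ra, the IL-27 binding chain, was at 327 and 375 CPM in KO naive, 175 and 196 in KO Th1, and 194 and 294.5 in KO Th2 libraries. KO Th1 libraries lay under both WT Th1 libraries (log2 -0.55, SE 0.13, adjusted p = 0.00298). In Th2 both lay above WT (log2 0.52, SE 0.14, adjusted p = 0.00414), but the KO replicates differed widely: without KO Th2 replicate 2 the log2 change was 0.18 (adjusted p = 0.165). A fit of the 4 libraries alone gave an adjusted p of 0.0628. Naive KO and WT libraries overlapped (log2 -0.14, 95% interval -0.43 to 0.14).

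Il6ra, the IL-6 binding chain, was at 214 and 230.5 CPM in KO naive libraries against 385 and 412 in WT, with no overlap. In KO Th1 it was reduced to 1.01 and 1.77 CPM, which are 13 and 22 counts against 782 and 753 in WT Th1. KO Th2 libraries held 6.21 and 6.26 CPM, 71 and 58 counts, against 1193 and 861 in WT Th2. The KO cultures thus kept a small part of the WT level, and Th2 kept more than Th1. The log2 changes were -0.84 in naive cells (SE 0.12, adjusted p = 9.33e-05), -5.53 in Th1 (SE 0.20, adjusted p = 7.27e-12) and -3.99 in Th2 (SE 0.16, adjusted p = 9.54e-12). In KO cells the fall from naive to Th1 took Il6ra from above 200 CPM to below 2 CPM, where WT Th1 cells stayed above 60.

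Il6st, which encodes gp130, was at 267 and 314.5 CPM in KO naive, 43.3 and 53.6 in KO Th1, and 175 and 105 in KO Th2 libraries. KO Th1 was the lowest of the 10 groups and 3.67-fold under WT Th1 (log2 -1.88, SE 0.20, adjusted p = 2.46e-06). The KO Th2 libraries lay on either side of the WT Th2 pair (log2 0.06, 95% interval -0.35 to 0.46). The naive difference, log2 -0.59 (SE 0.18, adjusted p = 0.0267), missed the threshold without either WT naive library (adjusted p = 0.102 and 0.101), without KO naive replicate 1 (0.210) and with no filter on low counts (0.0619).

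Ifngr1 was at 464 and 476 CPM in KO naive, 684 and 626 in KO Th1, and 439.9 and 579.7 in KO Th2 libraries. In Th2 both KO libraries were far above both WT libraries (log2 1.69, SE 0.21, adjusted p = 7.44e-06). In naive cells the KO pair lay above the WT pair and in Th1 below it, without passing the test (log2 0.33, 95% interval -0.10 to 0.76; log2 -0.22, 95% interval -0.64 to 0.21). Fits of the 4 libraries of each comparison alone put both past the threshold (adjusted p = 0.00746 in naive cells and 0.0138 in Th1).

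Ifngr2 was at 82.5 and 94.4 CPM in KO naive, 4.26 and 4.75 in KO Th1, and 30.2 and 27.1 in KO Th2 libraries, each pair below the WT pair of its setting. The log2 changes were close in size: -1.21 in naive cells (SE 0.12, adjusted p = 4.19e-06), -1.39 in Th1 (SE 0.18, adjusted p = 1.13e-05) and -1.23 in Th2 (SE 0.13, adjusted p = 7.75e-07). The order of settings seen in WT cells, naive above Th2 above Th1, was the same in KO cells. KO Th1 libraries, with 55 and 59 counts, were the lowest of the series.

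Within a library, the ratio of the 2 chains of a receptor shows these differences without scaling between libraries. Per kilobase, Ifngr1 exceeded Ifngr2 1.95 to 2.34 times in WT naive, 71.4 to 79.5 times in WT Th1 and 2.44 to 3.04 times in WT Th2 libraries. In KO cells the ratio was higher in each setting, at 5.87 to 6.54, 153 to 187 and 16.96 to 24.9. The ratio of Il6ra to Il6st was 1.13 to 1.21 in WT naive libraries, 0.463 to 0.466 in WT Th1 and 0.908 to 0.993 in WT Th2. It was 0.941 to 1.03 in KO naive libraries but 0.0298 to 0.0424 in KO Th1 and 0.0457 to 0.0766 in KO Th2. The ratio of Il12rb2 to Il12rb1 was 0.241 to 0.264 in WT naive and 0.387 to 0.585 in KO naive libraries, 4.09 to 4.17 in WT Th1 and 4.25 to 4.30 in KO Th1, and 0.692 to 0.890 in WT Th2 against 1.12 to 1.40 in KO Th2.

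**Figure D3:**
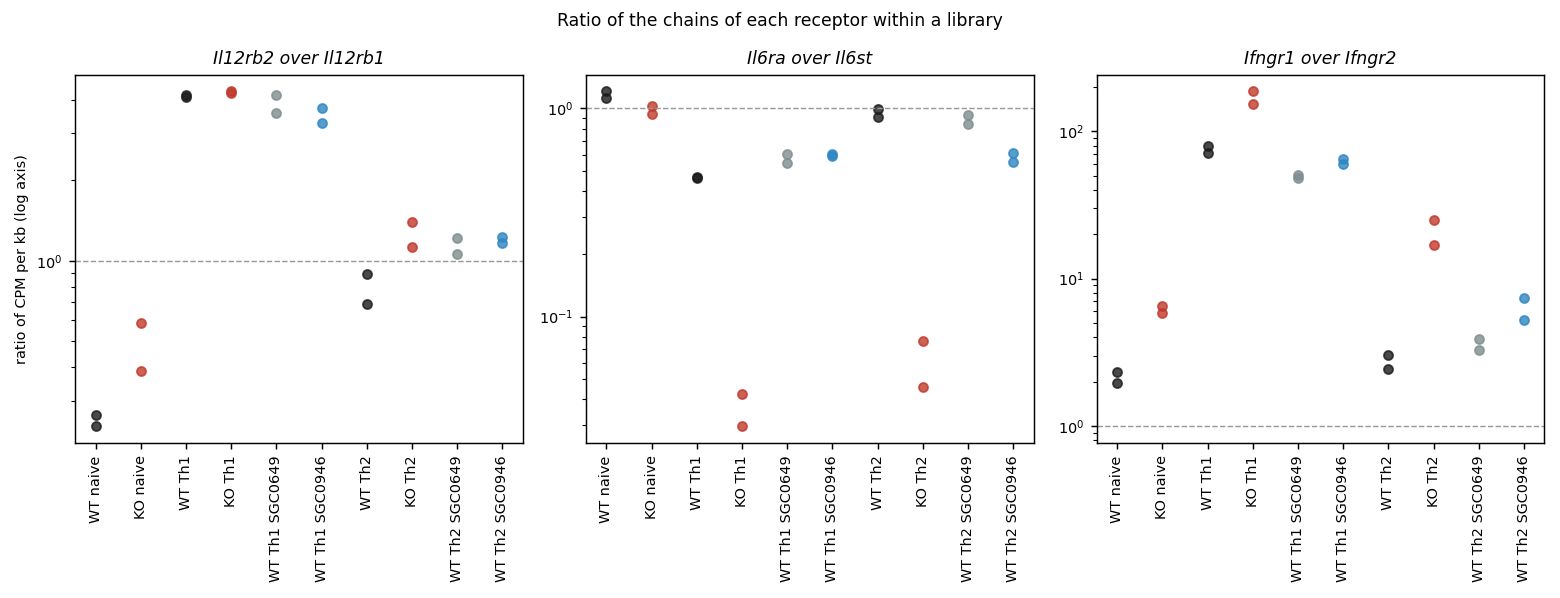
Ratio of CPM per kb of the 2 chains of each receptor (log axis, dashed line at equal levels) in each library, grouped on the x axis by genotype, culture and compound, with the colours of the plot of levels. The KO cultures stand apart for Il6ra over Il6st, below 0.1, and Ifngr1 over Ifngr2 is highest in KO Th1, at 153 and 187.

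The markers named above moved with some of these results. Beside the marker counts below, the shares over all tested genes were 24.8% higher and 25.8% lower in KO Th1. They were 26.5% and 26.9% in KO Th2, and 16% and 12.4% in KO naive cells. In KO Th1, where Il12rb1, Il12rb2, Il27ra, Il6ra, Il6st and Ifngr2 were lower, all 9 tested mast cell and basophil markers were higher. Myeloid and dendritic cell markers were higher there too, 6 of 11 with none lower (184 to 236 CPM in sum against 80.9 to 82.6). Of the 8 T cell markers 1 was higher and 6 lower (3990 to 4129 CPM in sum against 5774 to 5933 in WT). In the same libraries 4 of 4 naive T cell markers were lower. Of the 3 Th1 markers 1 was higher and 2 lower (1861 to 2760 CPM in sum against 988 to 1028). Of the 3 Th2 markers 2 were lower and none higher (21.8 to 24.9 CPM in sum against 80.5 to 82.7). In KO Th2, where Ifngr1, Il12rb2 and Il27ra were higher, both CD8 T cell markers were higher and 5 of 11 myeloid and dendritic cell markers were (318 to 431 CPM in sum against 91.7 to 95.3), with none lower and Siglech at 0 in WT and KO Th2 alike. Of the 8 T cell markers 4 were higher and 4 lower in KO Th2, where Il23r, Il6ra and Ifngr2 were lower (4151 to 4907 CPM in sum against 3264 to 3527). All 4 naive T cell markers (109 to 154 CPM in sum against 697 to 740.2) and all 3 Th2 markers (232 to 340.03 against 758 to 788) were lower in the same libraries. In KO naive cells 8 of 11 myeloid and 5 of 7 erythroid markers were higher, with none lower, and none of either list was at 0. Erythroid markers summed to 1340 and 323 CPM in KO replicates 1 and 2 against 314 and 200 in WT. Mast cell and basophil markers were higher for 4 of 9 tested (76.7 to 162 CPM in sum against 30.0 to 56.7). B cell markers were higher for 2 of 7 (53.8 to 82.9 against 19.9 to 25.9) and NK cell markers for 2 of 5 (83.9 to 107 against 48.9 to 66.9). No marker of these lists was lower. Of the 8 T cell markers 1 was higher and 4 lower (3705 to 4119 CPM in sum against 4835 to 4919). The name naive is a label of the uncultured cells. In KO naive libraries 3 of 4 naive T cell markers were lower and none higher (2487 to 2882 CPM in sum against 4048 to 4295.5). All 3 Th1 markers were higher there (142 to 159 CPM in sum against 55.1 to 69.8). The part of these markers in the receptor results was not tested.

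Whether the KO effect differed between settings was tested directly. Between Th1 and Th2, 7 of the 8 genes differed in their KO effect, against 46.2% of all tested genes (22% higher in Th1, 24.3% lower). Il12rb1, Il12rb2, Il27ra, Il6ra, Il6st and Ifngr1 had the lower effect in Th1 and Il23r the lower one in Th2. Between Th1 and naive cells the effect differed for 4 genes (Il12rb1, Il12rb2, Il6ra, Il6st), against 27.5% of all genes (10.7% higher, 16.9% lower), and between Th2 and naive cells for 6 (Il12rb1, Il12rb2, Il23r, Il27ra, Il6ra, Ifngr1), against 35.7% (17% higher, 18.7% lower). Ifngr2 passed none of these 3 tests: its effect differed by -0.18 between Th1 and naive cells (95% interval -0.64 to 0.29), by -0.02 between Th2 and naive cells (-0.40 to 0.35) and by -0.15 between Th1 and Th2 (-0.63 to 0.32).

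In KO cells themselves, 7 of the 8 genes differed between Th1 and Th2, against 59.8% of all tested genes (28.1% higher in Th1, 31.8% lower). Il12rb2 (log2 0.67) and Il23r (4.98) were higher in Th1. Il12rb1 (-1.08), Il27ra (-0.39), Il6ra (-2.16), Il6st (-1.53) and Ifngr2 (-2.67) were higher in Th2. The libraries of Il27ra overlapped, and its adjusted p of 0.0187 became 0.661 without KO Th2 replicate 2. Ifngr1, which split the WT cultures by a log2 change of 2.27, differed by 0.36 between the KO cultures (95% interval -0.06 to 0.79, adjusted p = 0.132), and passed without KO Th2 replicate 2 (log2 0.58, adjusted p = 0.0460).

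Inhibition of the enzyme during the 4 days of culture was compared with the control compound at the same 1 µM dose. None of the 8 genes passed the test in either culture, against 0.467% of all tested genes in Th1 (0.405% higher, 0.0612% lower) and 7.96% in Th2 (5.45% higher, 2.51% lower). At an unadjusted p under 0.05 the count was 2 of 8 in Th1 and 3 of 8 in Th2 with edgeR, and the same with limma voom and with DESeq2. The share of all tested genes at this unadjusted threshold was not computed, so these counts have no background. DESeq2 with adjustment called 0 in Th1 and 1 in Th2, Ifngr1.

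In Th1 cultures Il6ra was at 65.8 and 61.6 CPM with SGC0946 and 69.7 and 74.9 with SGC0649. The difference was log2 -0.18 (95% interval -0.45 to 0.09), which excludes a fall of the size seen in KO Th1. Il27ra was at 337 and 307 CPM against 267.5 and 249 with SGC0649 in Th1 (log2 0.32, 95% interval 0.04 to 0.60, adjusted p = 0.417) and 201 and 203 against 160.5 and 158 in Th2 (log2 0.34, 95% interval 0.05 to 0.63, adjusted p = 0.139). The SGC0946 libraries lay above the control libraries in both. Il12rb1 (log2 0.26, interval 0.00 to 0.51) and Il23r (0.43, -0.02 to 0.88) were measured higher in Th1 with SGC0946, and Il6st (-0.24, -0.65 to 0.16) and Ifngr2 (-0.24, -0.57 to 0.08) lower, none past the threshold. Il12rb2 (0.12, -0.11 to 0.35) and Ifngr1 (0.08, -0.34 to 0.51) did not pass either. The intervals of Il23r, Il6st, Ifngr2, Il12rb2 and Ifngr1 all include 0. The replicate number as a block raised the number of genes called in Th1 from 61 to 136 and added none of the 8.

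In Th2 cultures Ifngr1 was at 351 and 212 CPM with SGC0946 against 227 and 155 with SGC0649. The libraries overlapped, and the log2 difference of 0.56 (95% interval 0.12 to 0.99) had an adjusted p of 0.112. It passed without SGC0649 replicate 1 (log2 0.84, adjusted p = 0.0238) and without SGC0946 replicate 2 (log2 0.87, adjusted p = 0.00914). Il6st was at 157 and 165 CPM against 127 and 105, without overlap (log2 0.47, 95% interval 0.07 to 0.87, adjusted p = 0.149). Il23r, reduced to 4 counts a library in KO Th2, was at 33.7 and 25.7 CPM with SGC0946 and 32.5 and 24.6 with SGC0649 (log2 0.06, 95% interval -0.37 to 0.48). Il6ra (-0.14, -0.41 to 0.13), Ifngr2 (-0.26, -0.53 to 0.01), Il12rb1 (-0.02, -0.28 to 0.24) and Il12rb2 (0.06, -0.17 to 0.29) had intervals that include 0. No gene of the set had a compound effect that differed between Th1 and Th2, against 0.52% of all tested genes (0.222% higher in Th1, 0.298% lower). At an unadjusted p under 0.05 the count was 1 of 8 (Il6st) with edgeR and 1 of 8 with DESeq2 and with limma voom. After adjustment it was 0 with all of them. The share of all tested genes at the unadjusted threshold was not computed.

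The KO effect and the SGC0946 effect were set against each other in a test of their difference. In Th1 the KO effect was lower for 6 of 8 genes, against 30.7% of all genes (12.8% higher, 17.9% lower): Il12rb1 by log2 -0.79, Il12rb2 by -0.60, Il27ra by -0.87, Il6ra by -5.35, Il6st by -1.63 and Ifngr2 by -1.14. In Th2 the effects differed for 5 of 8, against 32% of all genes (15% higher, 17% lower): the KO effect was higher for Il12rb2 (0.58) and Ifngr1 (1.14) and lower for Il23r (-5.48), Il6ra (-3.85) and Ifngr2 (-0.98). In a fit of the libraries of that comparison alone, Il12rb2 missed the threshold (adjusted p = 0.0515). For Ifngr1 in Th2 both differences were positive, 1.69 for KO and 0.56 for SGC0946. The deletion and the compound differ in when they act, and the inhibitor was present for the 4 days only. The part of this timing in the differences was not tested. RNA counts do not measure how far the compound blocked the enzyme.

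The control compound was compared with cultures that had none. It called none of the 8 genes in Th1, against 0.0153% of all genes. In Th2 it called none either, against 0.673% (0.245% higher, 0.428% lower). At an unadjusted p under 0.05 the counts were 1 of 8 in Th1 and 3 of 8 in Th2 with edgeR, DESeq2 and limma voom alike. The share of all genes at that unadjusted threshold was not computed. Ifngr2 was at 18.3 and 16.4 CPM with SGC0649 in Th1 against 12.7 and 10.8 without (log2 0.56, adjusted p = 0.631). In Th2 Il12rb1 was at 245 and 211 CPM against 339.7 and 289.7 (log2 -0.47, adjusted p = 0.0736) and Il23r at 32.5 and 24.6 against 13.1 and 21.2 (log2 0.74, adjusted p = 0.0851), both without overlap. With the replicate number as a block both passed, at adjusted p = 0.0260 and 0.0490, and the genes called in all went from 88 to 523. DESeq2 also called Il12rb1 (adjusted p = 0.0195). Without SGC0649 Th2 replicate 1, Il12rb1 and Il6ra passed (adjusted p = 0.0136 and 0.0120).

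The genes around these receptors were taken from lists of ligands, signalling proteins, inhibitors and response genes. In KO Th1 cells 5 of 6 kinases and STAT factors were lower (median log2 change -0.90, against 0.01 over all genes) and none was higher, among them the kinase Jak2 by -1.07 and Stat4, which carries the IL-12 signal, by -0.95. Jak2 was also lower in KO Th2 cells, by -2.28, where 2 of 6 were higher, Stat4 among them (0.91), and 2 lower. None of the 6 passed in KO naive cells (median 0.02). Among 8 inhibitors and sheddases, Socs3, an inhibitor that binds gp130 receptors, was lower in KO Th1 (-1.50) and higher in KO Th2 (1.09) and naive cells (0.53). In all, 5 of 8 were lower and 1 higher in Th1 (median -0.31), 4 higher and 3 lower in Th2 (0.19), and 3 higher and 2 lower in naive cells (0.17). For both lists the shares over all tested genes were 24.8% higher and 25.8% lower in KO Th1. They were 26.5% and 26.9% in KO Th2, and 16% and 12.4% in KO naive cells.

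Of the ligand genes, 4 of 9 tested in naive cells, 6 of 9 in Th1 and 6 of 9 in Th2 were higher in KO cells, with 0, 1 and 3 lower (medians 1.18, 1.51 and 1.41). Over all tested genes 16%, 24.8% and 26.5% were higher in these settings, and 12.4%, 25.8% and 26.9% lower. Il6 rose in all 3 settings, by log2 2.81 in naive cells, 3.49 in Th1 and 2.47 in Th2, from a low level (0.380 to 5.17 CPM in WT). Ifng was 2108 ± 637 CPM in KO Th1 against 713 ± 18.8 in WT Th1 (SD, n = 2; log2 1.56, adjusted p = 0.000165). Lif, a gp130 cytokine, was higher in KO naive cells (2.17) and KO Th1 (1.51) and lower in KO Th2 (-1.21). Osm, a further one, was at 344 ± 44.7 CPM in KO Th2 against 86.0 ± 7.71 in WT Th2 (SD, n = 2). Where Il6 and Ifng were higher in KO Th1, the transcripts of Il6ra, Il6st and Ifngr2 were lower.

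The counts of response genes called are set beside the shares over all tested genes. Of all tested genes 24.8% were higher and 25.8% lower in KO Th1. In KO Th2 these shares were 26.5% and 26.9%, and in KO naive cells 16% and 12.4%. Of 19 IFN-γ response genes, 9 were lower and 2 higher in KO Th1 (median -0.40), 4 lower and 7 higher in KO Th2 (0.48), and 3 lower and 3 higher in KO naive cells (-0.07). The GTPase gene Gbp2 was lower in KO Th1 (-2.07), Ciita (1.79) and Cxcl10 (1.65) were higher there, and Gbp7 was higher in KO Th2 (1.72). Cxcl10 had no count in either KO Th2 library against 1.43 ± 0.606 CPM in WT Th2 (SD, n = 2). Of 9 IL-12 and STAT4 response genes, 8 were higher in KO naive cells and none lower (median 1.11), 3 higher and 2 lower in KO Th1 (-0.11), and 8 higher and 1 lower in KO Th2 (1.49). Il18rap, a chain of the IL-18 receptor, rose in all 3, by 1.73, 0.71 and 3.59, and its partner Il18r1 was higher in KO Th2 (2.63). Of 10 IL-6 and STAT3 response genes, 6 were lower and 1 higher in KO Th1 (median -0.39), 3 lower and 6 higher in KO Th2 (0.57), and 1 lower and 5 higher in KO naive cells (0.50). Il21 was 34.2-fold lower in KO Th2 (log2 -5.10, adjusted p = 4.01e-10), in the same libraries as Il23r.

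**Figure D4:**
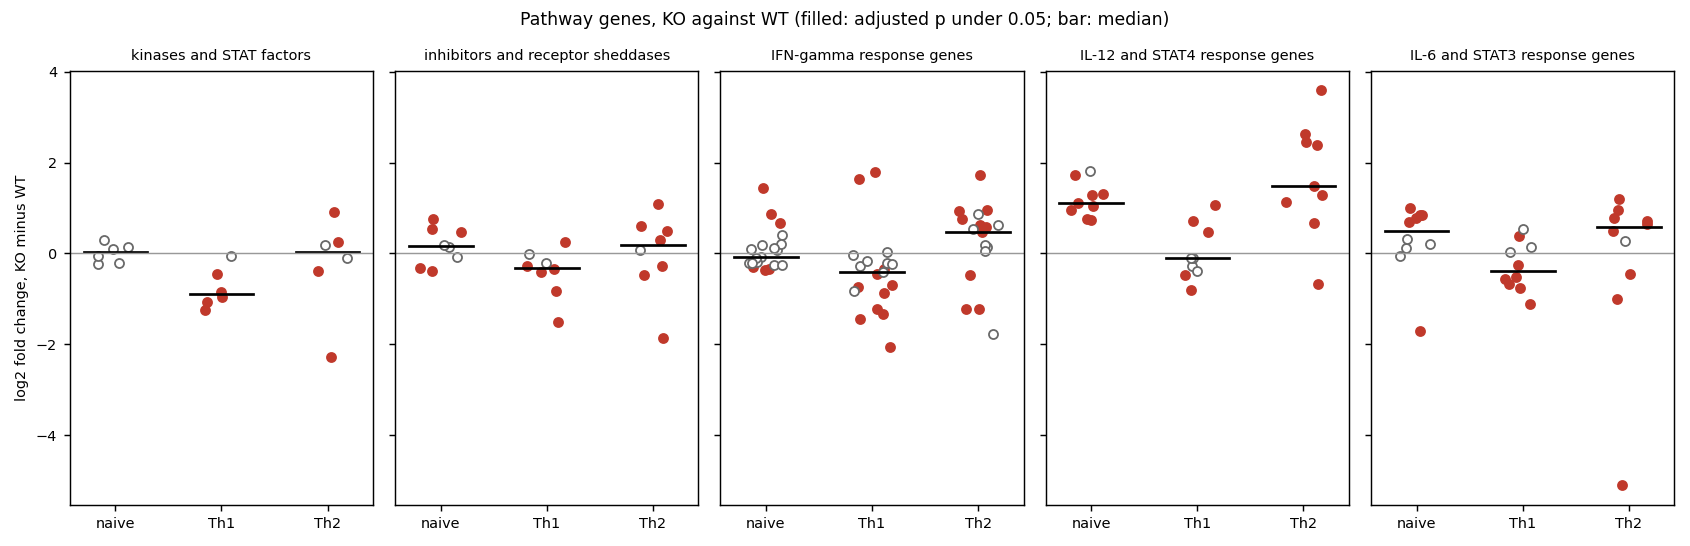
Log2 fold change of KO against WT for the genes of 5 lists in naive, Th1 and Th2 cells (x axis). Filled points passed at an adjusted p under 0.05, and bars are list medians. The 2 IFN-γ response genes with no count in KO Th2 (Cxcl9, Cxcl10) are not drawn there. Cxcl9 had no count in WT Th2 either. The median of kinases and STAT factors is -0.90 in Th1, and that of IL-12 and STAT4 response genes is 1.49 in Th2.

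In WT cells the same response genes followed the culture: 18 of 19 IFN-γ response genes and 7 of 9 IL-12 and STAT4 response genes were higher in Th1 than in Th2 and none was lower (medians 1.84 and 3.12, against 0.00 over all genes). Over all tested genes 26% were higher in WT Th1 than in WT Th2 and 27.3% lower. Tbx21, the Th1 transcription factor, differed by 3.93 and Ifng by 4.91. With SGC0946 none of the listed ligands, gp130 chains or kinases passed in either culture. Over all tested genes 0.467% passed in Th1, and in Th2 5.45% were higher and 2.51% lower. In Th2 1 inhibitor was lower (Ptpn6, -0.31), 1 IFN-γ response gene was lower (Cd274, -0.67) and 1 higher (Gbp4, 0.50), and of the IL-6 and STAT3 list Maf (0.98) and Batf (0.44) were higher and Il21 (-0.68) lower.

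Over the 10 groups, the order of levels was specific to each gene. Il12rb1 ran from WT Th2 (315 ± 35.4 CPM) and KO Th2 (303 ± 10.4), which overlapped, through the WT cultures with and without a compound, which overlapped in a chain, to KO Th1 (143 ± 5.22) and the naive groups. Il12rb2 ran from Th1 with SGC0946 (1206 ± 7.26) through WT Th1 and Th1 with SGC0649, which overlapped, to KO Th1, KO Th2, the 3 WT Th2 groups and the naive groups. Il6ra was ordered as WT naive, KO naive, the 6 WT cultures (63.7 to 98.9 CPM, most of them overlapping with the next), KO Th2 and KO Th1. Ifngr2 had WT naive first (204 ± 19.1) and KO Th1 last (4.50 ± 0.349), with overlap only between neighbours among the 3 WT Th2 groups. Ifngr1 was highest in the 3 WT Th1 groups, which overlapped, and lowest in the 3 WT Th2 groups, each of which overlapped with the next. Th2 with SGC0946 (351 and 212 CPM) did not overlap with WT Th2 without a compound (149 and 166 CPM). Between the WT Th1 and WT Th2 groups came KO Th1, then KO Th2 and KO naive, which overlapped, and WT naive. Il27ra was highest in WT naive cells and lowest in Th2 with SGC0649 (159 ± 2.06). Il6st was highest in WT naive cells, and the groups from Th1 with SGC0649 down to Th2 with SGC0649 overlapped with their neighbours. Il23r was highest in Th2 with SGC0946 and with SGC0649 (29.7 ± 5.64 and 28.6 ± 5.59 CPM), which overlapped, and WT and KO naive cells overlapped ahead of KO Th2 at the end.

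Mean log2 CPM over the 10 groups gave a Pearson r of 0.90 between Il12rb1 and Il12rb2, 0.85 between Il6ra and Il6st, -0.65 between Ifngr1 and Ifngr2 and -0.82 between Il12rb2 and Ifngr2. These describe 10 group means that share libraries and culture conditions. The tested genes most like each receptor on this measure were Rer1, Tg and Ech1 for Il12rb1 (0.997, 0.993 and 0.993), Ctnna1, Alcam and Gadd45g for Il12rb2 (0.997, 0.991 and 0.990), and Slc25a17, Hus1 and Kif18a for Il23r (0.975, 0.949 and 0.945). For Il27ra they were Prkcb, Tmem106b and Klf13 (0.987, 0.978 and 0.971), for Il6ra Acad10, Ephx1 and Ubxn7 (0.984, 0.983 and 0.977), and for Il6st Tnik, Als2cl and Tspan32 (0.987, 0.982 and 0.976). Ifngr1 was followed by Gvin1, Rab21 and Gbp7 (0.989, 0.987 and 0.981) and Ifngr2 by Smurf2, Chtop and Aldh6a1 (0.985, 0.982 and 0.979).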

How the data were processed

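Total RNA of 20 libraries was counted per gene by the authors with featureCounts 1.5.3 against the Ensembl release 84 annotation of GRCm38, per the file headers, with strand setting 2. The deposited values are raw counts of uniquely assigned reads and, per the file headers, exon lengths in bases. Of all alignments 49.5% to 56.3% were assigned to a gene. The submitters' processing notes also name edgeR and limma.

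Protein-coding counts were filtered with filterByExpr (minimum count 10, total 15), scaled by TMM and fitted with edgeR 4.0.16 (R 4.3.3) over all 20 libraries with 1 mean per group, robust quasi-likelihood dispersion and 10 residual degrees of freedom. Benjamini-Hochberg adjustment ran over 13072 genes (threshold 0.05), and standard errors come from the F statistic. The script was tested on simulated data. The alternatives were DESeq2 1.42.0, limma 3.58.1 voom, relative log expression factors, no filter, genes of all classes, a replicate block, the contrast's libraries alone, and each library left out.

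The receptor genes, the lists and their tests were chosen with earlier results of these data known. Named list genes were up to 3 called genes per list and comparison whose libraries did not overlap, ranked by log2 change, with a floor of 1 on average log2 CPM. The values of 1 gene that this rule names are not reported here. Like genes were the 3 with the highest Pearson r over group means. Marker lists covered T, naive T, Th1, Th2, myeloid and dendritic, B, NK and CD8 T cells, erythroid cells, and mast cells and basophils.

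Replicate numbers are animal numbers in the titles. Same-numbered WT cultures deviated together (15 of 15 pairs of groups, correlation 0.168 to 0.661), as did WT and KO of the same setting (3 of 3, 0.156 to 0.303), but not WT naive with WT cultures (0 of 6). Among the KO groups 1 of 3 pairs deviated together (correlation -0.0531 to 0.245). The replicate block joined WT and KO libraries of the same number, which come from different animals. Count columns of the SGC0946 replicate 2 libraries carry another animal number than their titles, so their block rests on the titles.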

Additional observations from a re-analysis of the deposited data

Results flagged for a closer look

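The receptor results listed here had a KO effect, the log2 change of KO against WT, that differed between settings by an interaction test (edgeR quasi-likelihood test, adjusted p under 0.05 over all tested genes). Between Th1 and naive cells the effect differed by -1.02 for Il12rb1, -1.88 for Il12rb2, -4.69 for Il6ra and -1.28 for Il6st. Il12rb2 changed sign, higher in KO naive cells and lower in KO Th1 cells. Between Th2 and naive cells it differed by -0.54 for Il12rb1, -0.76 for Il12rb2, -5.41 for Il23r, 0.66 for Il27ra, -3.15 for Il6ra and 1.36 for Ifngr1. For Il23r the KO Th2 libraries held 4 counts each.

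Between Th1 and Th2 the effect differed by -0.48 for Il12rb1, -1.12 for Il12rb2, 5.42 for Il23r, -1.07 for Il27ra, -1.54 for Il6ra, -1.93 for Il6st and -1.91 for Ifngr1. Il12rb1 passed here with an adjusted p of 0.0315 and missed the threshold without WT Th1 replicate 1 (0.0912), KO Th1 replicate 2 (0.0742), WT Th2 replicate 2 (0.119) or KO Th2 replicate 1 (0.0795). Its difference between Th2 and naive cells (adjusted p = 0.0324) and that of Il27ra (adjusted p = 0.0121) were each lost without single libraries too, the first up to 0.200 without KO naive replicate 2 and the second up to 0.0748 without KO Th2 replicate 2. Mast cell, CD8 T cell and myeloid marker sums moved with genotype in these settings as given above, and their part in these differences was not tested.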

How the results depend on the processing

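No log2 change of the 8 genes changed direction past a threshold in any alternative computed. Without single libraries, 704 of these values kept their side of the threshold, 21 lost it and 11 gained it, and in the other alternatives 930 kept it, 6 lost it and 15 gained it. With DESeq2, genes called for SGC0946 against SGC0649 in Th1 went from 61 to 140, for SGC0649 against none from 2 to 21 in Th1 and from 88 to 540 in Th2, with 1 receptor gene in Th2, and for the SGC0946 effect between Th1 and Th2 from 68 to 146; 1 receptor gene was called for SGC0946 in Th2. Limma voom gave 1 and 148 genes for SGC0649 against none in Th1 and Th2. With no filter the SGC0946 count in Th1 was 100 and those of SGC0649 were 4 in Th1 and 207 in Th2, with 1 receptor gene in Th2. The replicate block gave 136 genes for SGC0946 in Th1, and 523 genes and 2 receptor genes for SGC0649 in Th2; it changed no other call of the 8 genes. Fits of the libraries of the contrast alone gave 561 genes and 1 receptor gene (Il27ra, adjusted p = 0.0169) for SGC0946 in Th1 and 0 genes in Th2, 190 genes and 1 receptor gene (Ifngr2, adjusted p = 0.0421) for SGC0649 in Th1 and 0 genes in Th2, 12 genes for the SGC0946 effect between cultures, and 2636 instead of 4179 for KO against SGC0946 effects in Th2. The cause of these shifts was not tested.

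Leaving out single libraries, receptor genes called in KO naive cells ranged from 3 to 4 and all genes from 1571 (without KO naive replicate 1) through 1844 and 2233 (without WT naive replicates 2 and 1) to 3293. For SGC0946 all genes ranged from 3 to 6 in Th1, whichever library was left out, and in Th2 from 330 (SGC0946 replicate 1 left out), 426 (SGC0649 replicate 2) and 626 (SGC0946 replicate 2) to 1966 (SGC0649 replicate 1), with 0 to 1 receptor genes in Th2. For SGC0649 against none they ranged from 1 to 2 in Th1 and from 2 to 2402 in Th2, with 0 to 2 receptor genes in Th2, the highest without SGC0649 Th2 replicate 1. For the SGC0946 effect between cultures they ranged from 10 to 256 (the highest without SGC0649 Th2 replicate 1), and for KO against SGC0946 effects in Th1 from 2627 (without SGC0946 Th1 replicate 1) to 3472. A lone library is assumed to vary like the other groups. With 2 libraries a group, changes under about the intervals given could not be told from none, and counts of 4 to 22 limit Il23r in KO Th2 and Il6ra in KO Th1.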

Other observations

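Other cytokine receptors of T cells also changed in KO cells. Of 18 tested, 9 were higher and 3 lower in KO naive cells (median log2 change 0.34), 4 higher and 9 lower in KO Th1 (-0.44), and 11 higher and 2 lower in KO Th2 (0.56). Over all tested genes 16% were higher and 12.4% lower in KO naive cells. These shares were 24.8% and 25.8% in KO Th1, and 26.5% and 26.9% in KO Th2. Il1rl1, which encodes the IL-33 receptor, rose in all 3 settings, by 1.99, 2.26 and 1.30, and was at 269 ± 92.7 CPM in KO Th1 against 56.0 ± 6.20 in WT (SD, n = 2). Il9r was higher in KO naive cells (2.06) and KO Th1 (1.97), and Il1r1 in KO naive cells (1.90) and KO Th2 (1.72). Il10ra, the IL-10 binding chain, was 3.71-fold lower in KO Th1 (log2 -1.89, adjusted p = 3.66e-11). Mast cell and basophil markers, which were higher in the KO Th1 libraries, moved with Il1rl1 there, and their part was not tested. Of 4 tested further chains of the gp130 family, 1 was higher in KO naive cells, 2 in KO Th1 and 3 in KO Th2, and 1, Il11ra1, was lower in KO Th2 (-0.76). The shares over all tested genes given above hold for this list too.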
